A study of Bos taurus and Capra hircus with 9 samples.

Results

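bta-miR-155, bta-miR-342 and bta-miR-150 are bovine entries of microRNAs (miRNAs) best known from lymphocytes, and they were followed here, without the prefix, in extracellular vesicles (EVs) of goat and cow milk. They were taken by name from the table of bovine miRNA entries, which held 1 entry for each of them, 3 of 296 in all. The libraries came from 9 animals with 1 library each, 4 goats (17, 44, 79 and 127) and 5 cows (1, 2, 3, 20 and 62). Milk was collected at 26 ± 9 days postpartum in goats and at 30 ± 7 days in cows, values that the labels give per group and not per animal. The goats were primiparous Alpine goats and the cows were Holstein Friesian. No animal received a treatment, and the milk of all of them was skimmed and depleted of somatic cells by centrifugation before EVs were purified on a sucrose gradient. Farm, breed and an additional acetic acid step for goat milk followed the species, so that none of them can be told apart from it. Tags of both species were counted on the bovine entries.

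A miRNA is a short RNA that guides a silencing complex to messenger RNAs, mainly through its seed, bases 2 to 8. miR-155 is cut from a non-coding transcript that is induced when B cells, T cells and macrophages are activated, and mice without it have impaired antibody and T cell responses. miR-150 accumulates in mature resting B and T cells and acts on the transcription factor MYB, which controls lymphocyte development. miR-342 lies within the gene EVL, an actin regulator of the Ena/VASP family, and is abundant in blood lymphocytes. None of them is restricted to lymphocytes, and milk EVs come from epithelial as well as immune cells.

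The mature sequences that the table assigns to the entries are shown because they decide which tags could be counted on them. They are written as DNA with the seed in capitals.
miR-155: tTAATGCTaatcgtgataggggt
miR-342: tCTCACACagaaatcgcacccatct
miR-150: tCTCCCAAcccttgtaccagtgt

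The 3 seeds differ from each other, and no other of the 296 entries carries any of them. miR-2409 shares bases 2 to 7 with miR-342 and is also its nearest listed entry, 9 single-base edits away over the whole sequence. The nearest listed entries of miR-155 and miR-150, miR-26a and miR-125a, were each 8 edits away. miR-155 and miR-150 are listed with 23 bases. The miR-342 entry has 25 bases, a length that 2 of the 296 entries have and none exceeds, against a median of 22. Whether goat tags match these bovine sequences to their last base was not tested. In the RefSeq annotation of the ARS-UCD2.0 bovine assembly, MIR342 overlaps EVL and is followed by DEGS2. MIR155 lies between MRPL39 and a long non-coding RNA gene, LOC132345453, and neither MIR155 nor MIR150 overlaps another gene. None of the 3 has another annotated miRNA gene within 10 kb. No coordinates are given, because no source used here gives the build behind the deposited values.

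The values are TPM, a tag count scaled to a fixed library total, deposited as whole numbers. The listed entries summed to between 239233 and 406336 TPM in goats and between 267316 and 420029 TPM in cows, so that a library's TPM also depend on tags outside the table. A level is therefore also given here as a share, in ppm of the listed TPM of the same library (10000 ppm being 1%). Read numbers of single libraries are unknown, and counting error could not be computed. The epithelial miR-200a, miR-200b and miR-200c averaged between 10108 and 11977 TPM in goats and between 9353 and 13668 TPM in cows. The red cell miRNAs miR-451 and miR-486 summed to at most 37 TPM, in goat 79. At least 4 libraries exceeded 1 TPM for 217 entries, of which 37.3% were higher and 24% were lower in goats at an adjusted p under 0.05 (limma on log2(TPM + 1), Benjamini-Hochberg over all 217). All 3 lymphocyte-linked entries were among those tested. The calls of the 3 entries are read against this background. Its balance turned without goat 17, with 44 higher and 57 lower of 187 tested, and without goat 79, with 46 higher and 52 lower of 186. The filter was applied anew in these fits, so that entries above 1 TPM in goats alone could no longer pass it. How far the turn came from that loss was not tested.

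miR-155, the activation-linked member, was the most abundant of the 3 in each of the 9 animals. It was measured at 813 TPM in goat 17, 218 TPM in goat 44, 302 TPM in goat 79 and 273 TPM in goat 127. In cows it was at 33 TPM in cow 1, 23 TPM in cow 2, 11 TPM in cow 3, 12 TPM in cow 20 and 25 TPM in cow 62. The species did not overlap, and the lowest goat was 6.61 times the highest cow. Such separation, each goat above each cow, was found for 30.9% of the tested entries, and the reverse for 20.3%. On the log2(TPM + 1) scale goats exceeded cows by 4.11 (standard error 0.41, 95% interval 3.23 to 5.00, adjusted p = 4.10e-07, limma). That was the 21st largest of the 217 tested. The rank of miR-155 within a library lay between 40 and 60 in goats and between 101 and 128 in cows.

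Goat 17 stood apart from the other goats for miR-155, with a level 3.73 times that of goat 44, the lowest. Without goat 17 the ratio of the species means fell from 19.3 to 12.7, and the log2 fold change was 3.71 (adjusted p = 1.76e-07, limma). Goat 17 also had the largest listed total among goats. As a share, miR-155 was at 2001 ppm in goat 17, 1141 ppm in goat 127, 856 ppm in goat 44 and 816 ppm in goat 79. Goat 79, second by TPM, was thus last by share, and the distance from highest to lowest shrank to 2.45 times. Cows had shares from 39.3 to 81.8 ppm. Goats averaged 1203 ± 551 ppm (SD, n = 4) and cows 60.2 ± 19.3 ppm (SD, n = 5), a difference with p = 0.00794 in an exact permutation test (two-sided), the smallest p that 4 against 5 animals can give.

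**Figure D1:**
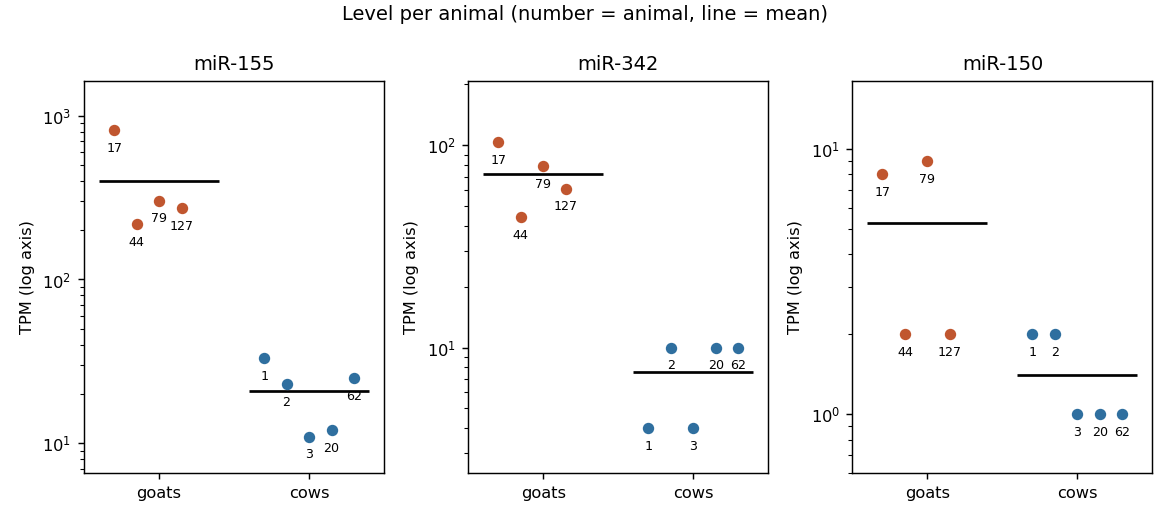
TPM of miR-155, miR-342 and miR-150 in each of the 4 goats and 5 cows, on log axes. Points are animals with their numbers, and lines are species means. Goats are above all cows for miR-155 and miR-342, while goats 44 and 127 share the value of 2 TPM with cows 1 and 2 for miR-150.

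miR-342, the EVL-hosted member, was also higher in goats, with a ratio of the species means of 9.47. It was at 104 TPM in goat 17, 44 TPM in goat 44, 79 TPM in goat 79 and 61 TPM in goat 127. Cows 2, 20 and 62 each had 10 TPM, and cows 1 and 3 each had 4 TPM. The lowest goat was 4.40 times the highest cow. Goats averaged 72.0 ± 25.7 TPM (SD, n = 4) and cows 7.60 ± 3.29 TPM (SD, n = 5). The log2 fold change was 3.12 (standard error 0.36, 95% interval 2.34 to 3.89, adjusted p = 2.19e-06, limma), in place 34 of 217. All 4 goats lay above all 5 cows, as they did for 30.9% of the tested entries.

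Among the 4 goats the shares spanned less for miR-342 than for miR-155, which rested on goat 17. Shares of miR-342 were 256 ppm in goat 17, 255 in goat 127, 214 in goat 79 and 173 in goat 44, so that the highest was 1.48 times the lowest. Without goat 17 the spans of the other 3 goats were 1.48 times for miR-342 and 1.40 times for miR-155. In cows the shares ran from 9.52 ppm in cow 1 to 37.4 in cow 20, a 3.93-fold distance on values of only 4 to 10 TPM. The mean share of goats was 224 ± 39.7 ppm (SD, n = 4) and that of cows 23.7 ± 11.8 ppm (SD, n = 5), again with p = 0.00794 in the exact permutation test. On log2(TPM + 1) the SD among goats was 0.52 for miR-342, close to the median of 0.49 over the tested entries. For miR-155 it was 0.84, and 24 of the 217 entries had a larger one.

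miR-150, the miRNA of resting lymphocytes, was scarce in both species. It was listed at 8 TPM in goat 17, 9 TPM in goat 79 and 2 TPM in each of goats 44 and 127. Cows 1 and 2 had 2 TPM, and cows 3, 20 and 62 had 1 TPM. Here the species overlapped by TPM, since the 2 lower goats equalled the 2 higher cows. It passed the filter with 4 goats and 2 cows above 1 TPM. The log2 fold change was 1.18 (standard error 0.39, 95% interval 0.35 to 2.02, adjusted p = 0.0159, limma), the 68th largest, where goats averaged 5.25 ± 3.77 TPM (SD, n = 4) and cows 1.40 ± 0.55 TPM (SD, n = 5).

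The call of miR-150 rested on goats 17 and 79. Without goat 17 the adjusted p was 0.110, and without goat 79 it was 0.115 (limma). By share, goats ran from 7.85 ppm in goat 44 to 24.3 in goat 79 and cows from 3.27 to 4.89 ppm, without overlap. The rounding of the table is as large as that gap. With each value moved by 0.5 TPM towards the other species, the lowest goat would be at 5.89 ppm and the highest cow at 6.11. For miR-155 and miR-342 the same move left the species apart, with 815 against 83.4 and 171 against 39.3 ppm.

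The 3 entries kept the order miR-155, miR-342, miR-150 by TPM in all 9 libraries, although in cow 20 miR-155 and miR-342, at 12 and 10 TPM, were close. To compare how far they differed between the species, the log2 ratio of (TPM + 1) was taken within each animal, which removes the library total apart from the added 1. Together with the ratios to 4 leukocyte-linked miRNAs described below, 11 pairs were compared by exact permutation (two-sided), with p adjusted by Benjamini-Hochberg over the 11. On the plain TPM, miR-155 was 7.82 times miR-342 in goat 17, 4.95 times in goat 44, 4.48 times in goat 127 and 3.82 times in goat 79. In cows the ratio was 8.25 in cow 1, 2.75 in cow 3, 2.50 in cow 62, 2.30 in cow 2 and 1.20 in cow 20. Cow 1 was thus above all goats on plain TPM, and the other cows were below all of them. With the added 1, the log2 ratio of cow 1, 2.77, was between those of goat 17, 2.95, and goat 44, 2.28. The difference of the mean log2 ratio, goat minus cow, was 1.00 (95% interval by inversion of the exact test -0.21 to 2.04, adjusted p = 0.125), and it did not pass. Without cow 1 it was 1.36 (unadjusted exact permutation p = 0.0286). With cow 1 left out, all goats were above all cows, so that this p is the smallest the remaining animals can give. With any other animal left out, the unadjusted exact permutation p was between 0.107 and 0.143.

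On log2(TPM + 1), both abundant members differed more between the species than miR-150 did. The log2 ratio of miR-155 to miR-150 had a goat mean of 6.03 ± 0.75 (SD, n = 4) and a cow mean of 3.10 ± 0.49 (SD, n = 5), a difference of 2.93 (interval 1.93 to 3.86, adjusted exact permutation p = 0.0218). For miR-342 to miR-150 the means were 3.71 ± 0.58 and 1.77 ± 0.75, a difference of 1.93 (interval 0.82 to 3.10, adjusted exact permutation p = 0.0218). With the added 1, each goat was above each cow in both ratios. The added 1 weighs on miR-150 in cows, where the values are 1 or 2 TPM. On plain TPM the goats stayed above the cows for miR-155 to miR-150, at 33.6 to 136.5 against 11 to 25. For miR-342 to miR-150 they overlapped, since goat 79 was at 8.78 and cows 20 and 62 were at 10. Rounding by up to 0.5 TPM is large against such cow values of miR-150. Within that rounding the plain ratios of miR-155 to miR-150 need not stay apart. The highest cow, cow 62 at 25, rests on 1 TPM of miR-150, and the lowest goat was goat 79 at 33.6.

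**Figure D2:**
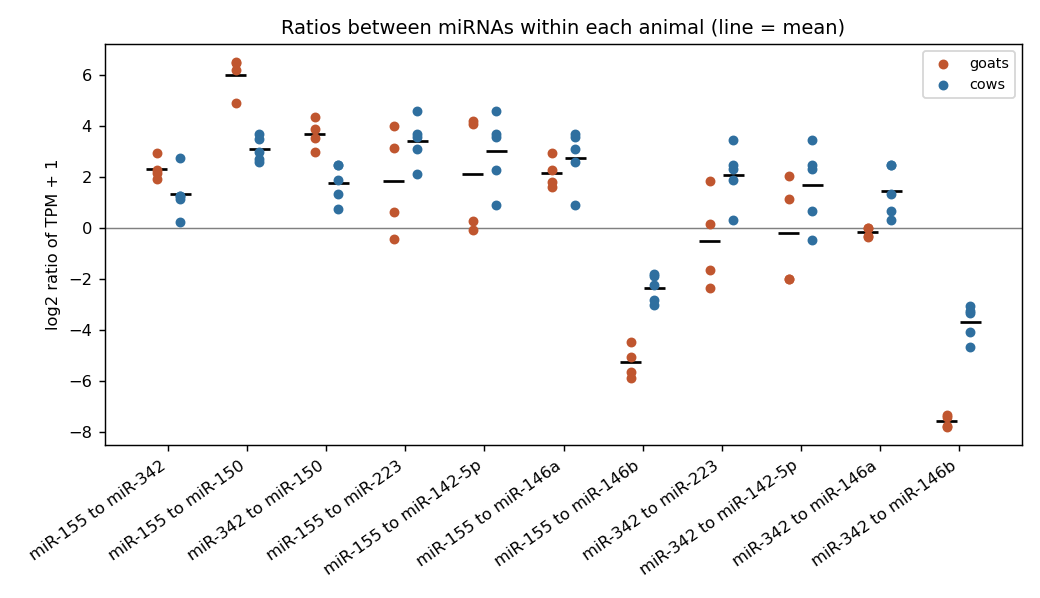
Log2 ratio of (TPM + 1) between miRNAs within each animal, for 11 pairs, with goats and cows side by side and lines at the means. The ratios to miR-150 are higher in every goat than in any cow. Those to miR-146b and the ratio of miR-342 to miR-146a are lower in every goat than in any cow. The ratios of miR-155 to miR-342, miR-223, miR-142-5p and miR-146a overlap.

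Of the wider list of 14 lymphocyte-linked miRNAs, 13 were tested, and 6 were higher and 0 lower in goats (limma). Besides the 3 members, 3 of 10 were higher, next to 37.3% of all tested entries. Leaving out miR-155, miR-342 and miR-150, the median log2 fold change of the list was 0.33, and that of all tested entries was 0.24. The latter median was -0.07 without goat 17 and -0.15 without goat 79, where entries above 1 TPM in goats alone no longer passed the filter. miR-181a, which tunes T cell receptor signalling in mice, had a goat mean of 1575 ± 396 TPM (SD, n = 4) and a cow mean of 706 ± 401 TPM (SD, n = 5). Its log2 fold change was 1.27 (adjusted p = 0.00400, limma). The species overlapped, with cow 62 at 1400 TPM and goat 44 at 1110 TPM. The other calls were miR-18a of the miR-17-92 cluster, with a goat mean of 2.75 TPM and a cow mean of 0.80 TPM, and miR-28, with means of 67.8 and 41.8 TPM (adjusted p = 0.0492, limma). Without goat 17 the list had 3 calls, and those of miR-150, miR-18a and miR-28 were lost. The call of miR-28 was lost in 7 of the 9 fits that left out 1 animal, all but those without goat 127 or cow 62, and that of miR-18a in 2 of 9, without goat 17 or goat 127.

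The miR-17-92 cluster drives lymphocyte proliferation in mice, and its other 5 entries, miR-17-5p, miR-19a, miR-19b, miR-20a and miR-92a, did not pass. miR-92a, the most abundant of the list, averaged 2611 ± 385 TPM in the 4 goats and 2581 ± 346 TPM in the 5 cows (log2 fold change 0.01, adjusted p = 0.954, limma). miR-20a averaged 290.5 ± 85.3 TPM in the 4 goats and 345 ± 88.8 TPM in the 5 cows (log2 fold change -0.25, adjusted p = 0.439, limma). miR-181b, at 182 ± 44.0 and 143 ± 65.6 TPM, did not pass either (adjusted p = 0.265, limma). miR-181c was below the filter. The summed level of the list without the 3 members spanned 4358 to 5537 TPM among goats and 3148 to 5262 TPM among cows, with overlap. The 3 members together summed to between 264 and 925 TPM in goats and between 16 and 39 TPM in cows. In RNA of EVs, fewer source cells of a type and less RNA released in EVs per cell cannot be told apart.

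**Figure D3:**
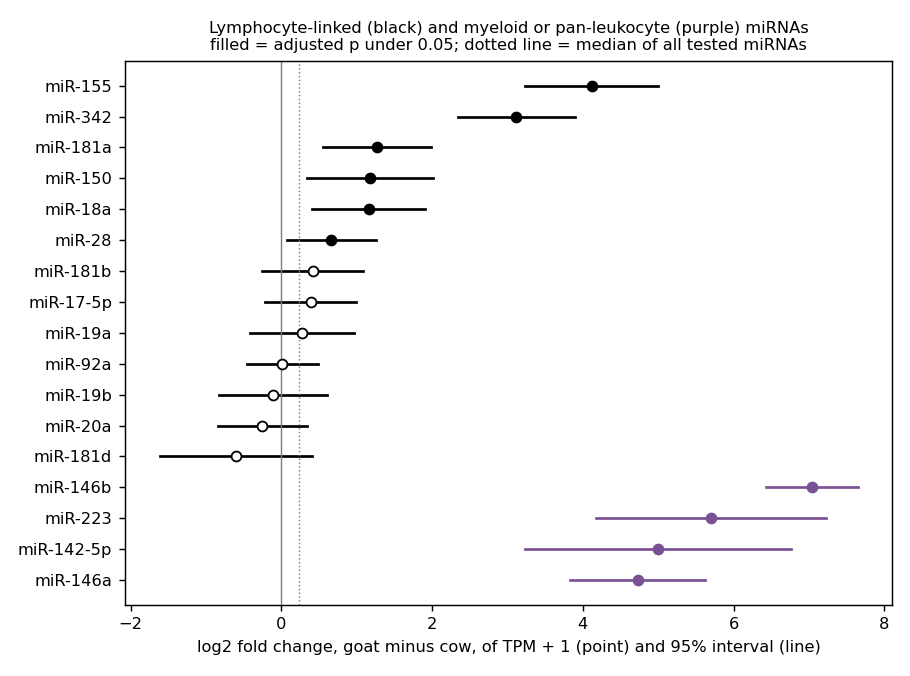
Log2 fold change of TPM + 1, goat minus cow, with its 95% interval (limma), for the 13 tested lymphocyte-linked and 4 tested myeloid or pan-leukocyte miRNAs. Filled points passed an adjusted p under 0.05 and the dotted line is the median of all tested miRNAs, 0.24; miR-155 and miR-342 stand to the right of the rest of their list, and miR-146b is farthest right of all.

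Other miRNAs linked to leukocytes were also higher in goats, and their values are set beside those of the lymphocyte-linked entries. Of 5 entries used in the myeloid and pan-leukocyte list, 4 were tested and all 4 were higher in goats (limma), with a median log2 fold change of 5.35. Over all tested entries 37.3% were higher and 24% lower, with a median of 0.24. The list summed to between 7748 and 18929 TPM in goats and to between 84 and 138 TPM in cows, most of it miR-146b. Whether that miR-146b came from leukocytes was not tested. The defining myeloid miRNA miR-223 was at 0 TPM in cows 2 and 3 and at no more than 3 TPM in the other cows, and miR-142-5p, of all blood cell lineages, was at 0 TPM in the same 2 cows. Of the endothelial and stromal list 2 entries were tested. miR-143 was higher, at 304 ± 87.1 TPM against 19.8 ± 4.09 TPM, and miR-126-3p did not pass, and the list summed to between 217 and 425 TPM in goats and 19 and 30 TPM in cows. Of the 6 tested epithelial entries, 1 was higher (miR-205), 1 was lower (miR-141) and 4 missed the threshold, and the sums of that list overlapped between the species. The 2 red cell entries used were below the filter. The part of cell types or blood in the levels of miR-155, miR-342 and miR-150 was not tested.

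From goat to goat, miR-223 and miR-142-5p differed more than miR-155 and miR-342, and in another order. miR-223 was at 92 TPM in goat 17, 140 TPM in goat 44, 409 TPM in goat 79 and 16 TPM in goat 127. miR-142-5p was at 47, 179, 316 and 14 TPM in the same order of goats. Goat 17, with the highest miR-155, thus ranked below goats 79 and 44 for both, and goat 127 was lowest. By share, the highest goat was 16.5 times the lowest for miR-223 and 14.6 times for miR-142-5p, against 2.45 times for miR-155 and 1.48 times for miR-342. miR-150 had its highest level in goat 79, at 9 TPM, but goat 17 was close at 8 TPM. Goats 44 and 127 shared its lowest level, 2 TPM, whereas goat 44 was above goats 17 and 127 for miR-223 and miR-142-5p. With 4 goats and 5 cows, correlations within a species were not computed.

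The log2 ratio of miR-155 to miR-223 spanned -0.44 to 4.01 among goats and 2.12 to 4.58 among cows, and the difference of -1.58 did not pass (interval -4.04 to 0.92, adjusted exact permutation p = 0.252). The ratio of miR-155 to miR-142-5p differed by -0.89 (interval -3.97 to 2.44, adjusted exact permutation p = 0.468). For miR-342 to miR-223 the difference was -2.58 (interval -4.96 to -0.01, adjusted exact permutation p = 0.0873), and for miR-342 to miR-142-5p it was -1.88 (interval -4.88 to 1.39, adjusted exact permutation p = 0.229).

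The 2 members of the miR-146 family, which restrain innate immune signalling, gave another picture. miR-146a was at 104, 44, 99 and 78 TPM in goats 17, 44, 79 and 127, so that it equalled miR-342 in goats 17 and 44 and was above it in the other 2. In cows miR-146a was at 1 to 6 TPM. The log2 ratio of miR-342 to miR-146a had a goat mean of -0.17 ± 0.19 (SD, n = 4) and a cow mean of 1.44 ± 1.00 (SD, n = 5), a difference of -1.61 that did not pass after adjustment (interval -2.90 to -0.33, adjusted exact permutation p = 0.0524). All 4 goats, at -0.35 to 0, were nevertheless below all 5 cows, at 0.32 to 2.46. For miR-155 to miR-146a the difference was -0.61 (interval -1.98 to 0.90, adjusted exact permutation p = 0.393).

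miR-146b differed more between the species than either member. The log2 ratio of miR-155 to miR-146b was -5.27 ± 0.64 in goats and -2.35 ± 0.55 in cows, a difference of -2.92 (interval -3.92 to -1.90, adjusted exact permutation p = 0.0218). For miR-342 to miR-146b the difference was -3.92 (interval -4.73 to -3.03, adjusted exact permutation p = 0.0218). All 4 goats were below all 5 cows in both ratios. Among goats the ratio of miR-342 to miR-146b had an SD of 0.24.

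**Figure D4:**
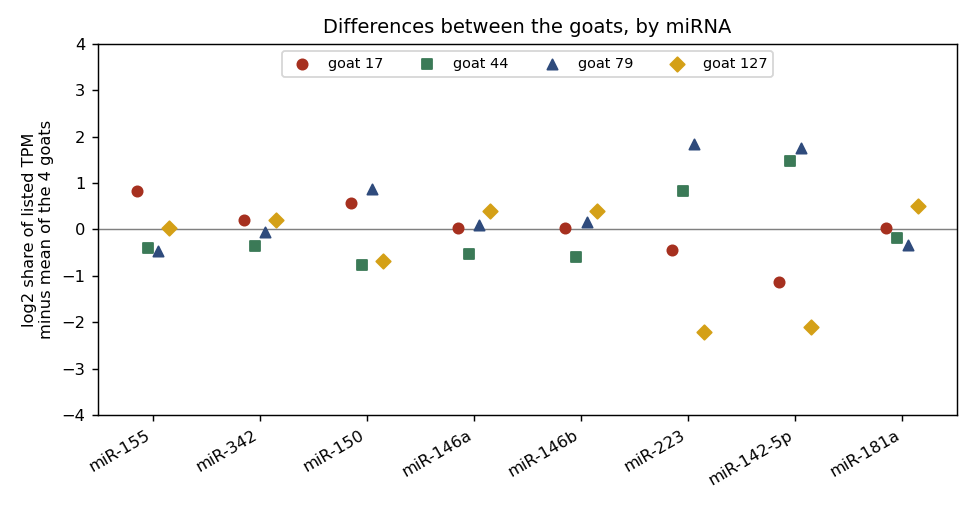
Share of the listed TPM in each of the 4 goats, as log2 minus the mean of the goats, for the 3 lymphocyte-linked entries and 5 other miRNAs. miR-342, miR-146a, miR-146b and miR-181a span less than 1 on this scale, miR-155 spans 1.29 with goat 17 on top, and miR-223 and miR-142-5p span 4.05 and 3.87 with goat 79 on top.

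The tested entries with the most similar profiles over the 9 libraries were sought by the root mean square (RMS) difference of log2(TPM + 1), after the mean of each entry had been removed. Nearest to miR-155 was miR-143, a miRNA of smooth muscle and connective tissue, with an RMS difference of 0.46, followed by miR-543, miR-370, miR-378 and miR-411c-5p at 0.57 to 0.69. The median RMS difference to all other tested entries was 2.04. miR-342 was in place 19, at 0.82. Of the 5 entries nearest to miR-155, miR-543 and miR-370 were listed at 0 in every cow, and miR-411c-5p averaged 0.20 TPM in the 5 cows. Nearest to miR-342 were miR-154b, miR-1271, miR-432, miR-369-5p and miR-370 at 0.44 to 0.53, with a median of 1.60 over all. Of these, miR-154b, miR-432, miR-369-5p and miR-370 were listed at 0 in every cow, whereas miR-1271 averaged 34.0 ± 11.0 TPM in the 4 goats and 3.80 ± 1.92 TPM in the 5 cows. Nearest to miR-150 were miR-769, miR-93, miR-30c, miR-25 and miR-339a at 0.31 to 0.40, with a median of 1.01. None of the 3 members was among the 5 nearest entries of another. The measure includes the difference between the species, and the 9 points of all entries come from the same libraries.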

How the data were processed

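The authors trimmed adapters, counted tags on miRBase 20 entries with the bovine reference for both species, and deposited a score per entry and library, their TPM written as whole numbers. Neither the mapping program nor the genome build is stated in the sources used here. Rows were taken by name, and sample columns by the animal code in the titles. No 2 libraries held the same values, and 0 sample columns were left out. Each animal counted as 1 replicate.

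For the 217 entries exceeding 1 TPM in 4 or more libraries, log2(TPM + 1) was compared with limma 3.58.1 in R 4.3.3, with a variance trend and Benjamini-Hochberg adjustment at 0.05. The model was tested on simulated data. Shares and ratios were compared by two-sided exact permutation over all 126 splits of the animals, in Python 3.11 with numpy, pandas and scipy. The 95% intervals of ratio differences hold the shifts of the goats that the test does not reject.

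Named miRNAs were the members, the nearest profiles, entries with the seed of a member, the entries of each list with the highest means (at most 4), and miR-223, miR-142-5p, miR-146a and miR-146b. miR-17-5p, miR-18a, miR-19a, miR-19b, miR-28, miR-181b, miR-181c and miR-205, and entries nearest in sequence, fall outside this rule and were named after their values were seen. The members, the lists (lymphocyte-linked, myeloid and pan-leukocyte, red cell, epithelial, endothelial and stromal) and the pairs for ratios were chosen with earlier results of these data known. Neighbouring genes came from RefSeq for ARS-UCD2.0, where all 3 members matched a symbol. Alternatives were pseudocounts of 0.1 and 10, other filters, 3 other scalings, limma without a trend or with species weights, and leaving out each animal.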

Additional observations from a re-analysis of the deposited data

Results flagged for a closer look

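The miR-155 level of goat 17, 813 TPM, lay far from those of the other 3 goats. The gap to the next goat was 0.859 of the range of the group, above Dixon's 95% critical value of 0.829 for 4 samples. In all, 18 groups were examined in this way, the TPM, the shares and the pairwise log2 ratios of the 3 entries in each species, and chance alone flags about 1 group in 20. On shares of the listed TPM the gap of goat 17 was 0.726 of the range, below that value. On log2(TPM + 1), looked at in addition, it was 0.753, also below.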

How the results depend on the processing

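miR-155 and miR-342 were higher in goats, with adjusted p under 0.05, in all 18 alternatives run for each. The log2 fold change of miR-155 ran from 3.60 (pseudocount 10) to 4.34 (without goat 44), and that of miR-342 from 2.19 (pseudocount 10) to 3.33 (without goat 44). Their shares of the listed TPM differed in all 10 alternatives each, with an exact permutation p of at most 0.0286. Every goat was above every cow in each of these, so that p was the smallest the animals used could give. Leaving out 1 animal could not change that outcome. miR-150 was below the filter of 10 TPM in at least 4 libraries. In the other 17 alternatives its log2 fold change stayed positive, from 0.39 (pseudocount 10) to 1.58 (pseudocount 0.1), and from 0.88 to 1.46 when 1 animal was left out; only without goat 17 or goat 79 did it not pass. The log2 ratio of miR-155 to miR-342 differed by 1.41 with a pseudocount of 10 (unadjusted exact permutation p = 0.0159, against 0.0794 with a pseudocount of 1) and by 0.73 to 1.36 when 1 animal was left out, where the unadjusted p was under 0.05 only without cow 1.

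With the filter at 10 TPM, 47 of 150 tested entries were higher and 33 lower in goats, against 81 and 52 of 217, and 3 lymphocyte-linked entries were higher against 6. That filter tests fewer entries. Without 1 animal, 44 to 81 entries were higher and 44 to 57 lower. The number higher moved by over 1.5 times without goat 17 (44), goat 44 (51) or goat 79 (46), where fewer entries passed the filter. The lymphocyte-linked list then had 3 to 6 higher and 0 lower entries. The median log2 fold change of all tested entries, 0.24, moved by less than 0.1 under the 3 other scalings. It was -0.07 without goat 17 and -0.15 without goat 79, where more entries were lower than higher. In each fit without a goat, entries above 1 TPM in goats alone could not pass the filter. How far the median moved for that reason was not tested. No paired analysis was possible because goats and cows share no animal number. Values of a few TPM, as for miR-150 in both species and miR-342 in cows, are limited by the rounding of the table to whole numbers.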

Other observations

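After the mean of each species was removed, so that only differences between animals of a species remained, other entries were nearest to the lymphocyte-linked miRNAs. Nearest to miR-342 were miR-30b-5p, miR-29d-5p and miR-331-3p, with RMS differences of log2(TPM + 1) of 0.20, 0.20 and 0.22 over the 9 libraries, against a median of 0.56 over all other tested entries. Nearest to miR-155 were miR-3431, miR-2285f and miR-148a at 0.39, 0.39 and 0.40, against a median of 0.61. Nearest to miR-150 were miR-2285k, miR-151-3p and miR-24-3p at 0.20, 0.27 and 0.27, against a median of 0.52. The RMS difference between miR-155 and miR-342 on this scale was 0.66, that between miR-155 and miR-150 was 0.54 and that between miR-342 and miR-150 was 0.60. The values were not rescaled to the listed totals, which differed between animals of a species. How far those totals shaped the nearest entries was not tested. Some values were near 0, as for miR-3431 in cows (mean 0.80 TPM) and miR-2285k in goats (mean 1.00 TPM).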
